A study of Mus musculus with 3 samples.

Results

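The mouse genes Stat2, Stat3, Stat4, Stat5a, Stat5b and Stat6, which encode STAT transcription factors, and Socs1, Socs3 and Cish, which encode inhibitors of the SOCS family, were followed across 3 cell populations of the spleen. The 9 genes were taken as every probe set whose platform annotation gave 1 of these symbols alone, and this found 18 of the 45037 probe sets that are not controls, for 9 of 18193 genes. Each population was measured on 1 Affymetrix array, as log2 expression per probe set. The populations were red pulp macrophages, sorted as high for the surface protein of the Adgre1 gene and for green fluorescent protein, Spic-positive monocytes, sorted as CD11b+ Ly6C+ and positive for the fluorescent protein, and Spic-negative monocytes, sorted by the same surface proteins but without it. All cells came from adult Spic(igfp/+) mice, in which 1 Spic allele carries the fluorescent reporter, so the 3 groups share this allele and none is without it. Spic is a transcription factor of red pulp macrophages, the resident cells that take up aged red blood cells. How many animals stand behind each array is not stated in the labels.

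STAT proteins lie in the cytoplasm until a cytokine binds its receptor and the JAK kinases bound to that receptor phosphorylate them, after which they pair, enter the nucleus and switch on target genes. Different receptors use different STATs: interferons use STAT2, interleukin 6 and interleukin 10 use STAT3, interleukin 12 uses STAT4, GM-CSF and erythropoietin use STAT5A and STAT5B, and interleukin 4 and interleukin 13 use STAT6. SOCS genes are among the targets, and their proteins bind receptors or JAKs and end the signal, so that SOCS transcripts are commonly read as a trace of recent signalling. In macrophages STAT3 carries the anti-inflammatory action of interleukin 10, and SOCS3 restrains signalling from the interleukin 6 receptor chain gp130.

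The promoters of the members were read for motifs that STATs bind. RefSeq promoter windows (GRCm38.p6), each holding 250 bases before and 50 after a transcription start, were available for all 9 genes, as 12 windows. The motif TTCNNNGAA, the core that most STATs bind, was in the windows of 2 of the 9 genes, Socs3 and Cish, and in 8.3% of all 32851 windows of the same length. The same TTC and GAA with 4 bases between them, the spacing that STAT6 favours, were in 1 member window, that of Stat2, and in 6.95% of all windows. A tandem of TTTC and TTTC with 2 bases between them, a core of the elements bound by interferon regulatory factors and by the STAT2 complex, was added after the promoters had been read. It was in the windows of Stat2 and Socs1, in 1 of the 2 windows of Stat4 and in 3.44% of all windows. Because it was chosen after these promoters had been read, its presence in them cannot be weighed against that share. All motifs were searched on both strands. The windows of Socs3 (chr11:117969317-117969616, minus strand), Cish (chr9:107296409-107296708, plus strand) and Stat2 (chr10:128270248-128270547, plus strand) are printed 5′ to 3′ because they hold the motifs of both inhibitors above background and of the interferon STAT. Capitals mark the motif matches, at -154 to -146 from the start in Socs3, at 1 to 9 and 12 to 20 in Cish, and at -222 to -213 (the TTTC tandem) and -210 to -201 (the STAT6 spacing) in Stat2.
Socs3: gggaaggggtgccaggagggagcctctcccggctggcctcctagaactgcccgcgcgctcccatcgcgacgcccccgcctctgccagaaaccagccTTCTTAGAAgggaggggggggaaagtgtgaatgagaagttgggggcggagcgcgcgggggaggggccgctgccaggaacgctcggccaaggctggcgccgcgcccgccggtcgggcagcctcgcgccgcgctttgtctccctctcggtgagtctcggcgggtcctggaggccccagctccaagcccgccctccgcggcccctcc
Cish: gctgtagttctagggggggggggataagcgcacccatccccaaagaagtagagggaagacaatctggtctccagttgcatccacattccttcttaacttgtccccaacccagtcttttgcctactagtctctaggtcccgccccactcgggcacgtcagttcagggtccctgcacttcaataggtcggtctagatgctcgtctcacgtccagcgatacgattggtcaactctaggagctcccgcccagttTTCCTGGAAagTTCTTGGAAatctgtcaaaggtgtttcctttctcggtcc
Stat2: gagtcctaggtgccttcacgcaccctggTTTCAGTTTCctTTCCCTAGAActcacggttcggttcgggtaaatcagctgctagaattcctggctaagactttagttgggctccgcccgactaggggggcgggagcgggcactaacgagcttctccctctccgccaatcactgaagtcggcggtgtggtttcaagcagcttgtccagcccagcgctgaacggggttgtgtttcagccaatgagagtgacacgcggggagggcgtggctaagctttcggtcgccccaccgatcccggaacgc
A match describes these letters and is not evidence that a STAT was bound in these cells.

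The sort could be followed in the genes behind it, and the arrays also differed in ways that the sort does not name. Spic measured log2 12.23 in red pulp macrophages, 9.22 in Spic-positive monocytes and 5.66 in Spic-negative monocytes, while the CD11b gene Itgam was at 5.23, 7.38 and 8.68 on these arrays. All 12 red pulp macrophage markers measured were at least 2-fold higher in macrophages than in Spic-negative monocytes, and all 8 classical monocyte markers measured were at least 2-fold lower. Xist, transcribed from an inactive X chromosome, was higher in macrophages than in Spic-negative monocytes by 7.32, and the Y-linked gene Eif2s3y differed by -6.79, so the sex of the animals cannot be told apart from the cell type. Each of the 18 hybridization controls, which are spiked into the labelled sample, was brighter on the array of Spic-positive than on that of Spic-negative monocytes (median difference 2.16). Gapdh control probe sets at the 3′ end exceeded those at the 5′ end by 1.61 in macrophages, 2.25 in Spic-positive monocytes and 0.48 in Spic-negative monocytes. Shortened RNA and the 2-cycle labelling used here can both give such an excess, and they cannot be told apart. The beta-actin control probe sets gave another order, with 1.13, 0.57 and 0.74 on the same arrays. Ifi44l and Ifi202b, both interferon-inducible, measured 3.27 and 3.28 in macrophages, below background, against 10.22 and 8.98 in Spic-positive and 10.31 and 9.35 in Spic-negative monocytes. These are bulk samples, in which fewer cells of a type and less RNA per cell cannot be told apart.

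With 1 array per group there is no replicate check, no p-value was computed, and differences are described by size, in log2 units. A gene with several probe sets is given by the one with the highest mean over the 3 arrays, called its first set, and its other sets follow. Values below log2 5.02, the median of all values and called the floor here, are near background. Of the 9 genes, 8 were above the floor on all 3 arrays by their first set and Socs1 on none. All 3 comparisons share arrays with one another, so their values are set side by side and not counted as separate evidence.

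Between the monocyte populations the STAT and SOCS genes lay close together. Of the 8 genes above the floor, 0 were 2-fold higher and 0 were 2-fold lower in Spic-positive monocytes against Spic-negative ones, beside 3.49% of 12375 genes that were 2-fold higher and 3.06% that were 2-fold lower. The widest differences were 0.62 for Socs3 and -0.61 for Stat4. The median over all 9 genes was -0.19, and that of all genes compared was -0.06. Centring the arrays on their medians moved the median of all genes to -0.13, and cyclic loess moved it to 0.04. Markers of B cells differed more, with 11 of 12 at least 2-fold higher, among them all 8 that were above the floor on all 3 arrays. Their summed levels were 11.64 in Spic-positive and 9.48 in Spic-negative monocytes. Of 8 dendritic cell markers above the floor, 3 were 2-fold higher and 0 lower, among them Ccr7 (4.05) and Itgax (3.14). Of 11 neutrophil markers, 1 was higher and 1 lower. The part of such cells in the member values was not tested. The direction of Stat3, which differed by -0.10, turned to 0.05 under cyclic loess.

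In red pulp macrophages the picture differed. Stat3, Stat5a, Stat2 and Socs3 were at least 2-fold lower than in either monocyte population, Stat4 was at least 2-fold higher, and Stat5b, Stat6 and Cish differed by less than 2-fold. That made 4 of 8 genes lower and 1 of 8 higher in both comparisons. Over all genes compared, 11.3% were 2-fold lower and 19.6% 2-fold higher in macrophages than in Spic-negative monocytes, and 11.6% were lower and 22% higher than in Spic-positive monocytes. The median over the 9 genes was -0.65 against Spic-negative and -0.37 against Spic-positive monocytes, where that of all genes was 0.03 and 0.10.

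**Figure D1:**
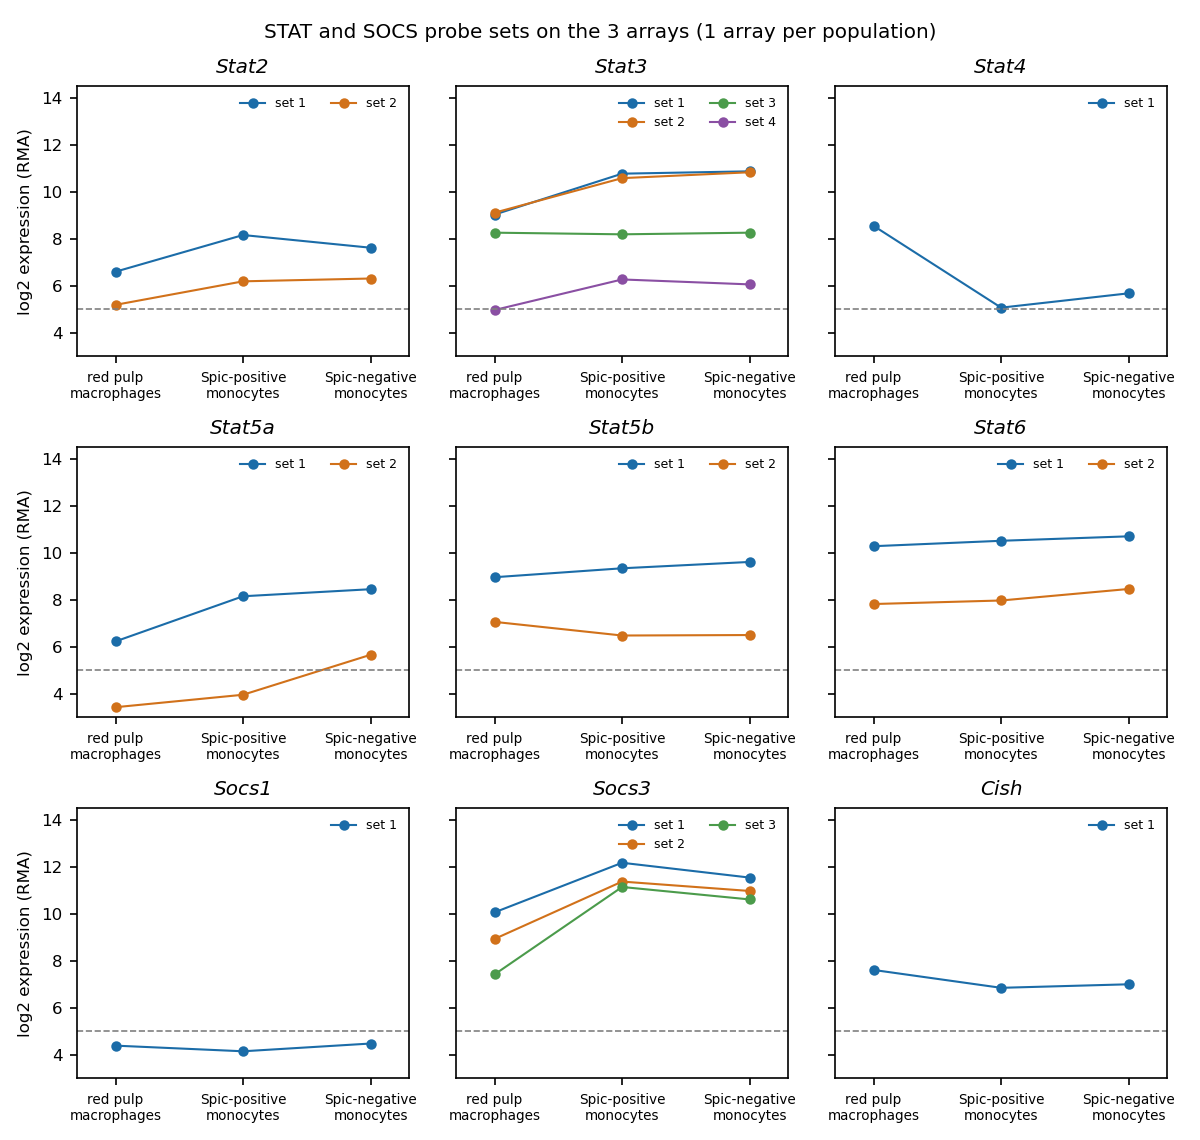
Log2 expression (y axis) of each probe set of the 9 genes in red pulp macrophages, Spic-positive monocytes and Spic-negative monocytes (x axis, 1 array each). Colours number the probe sets of a gene, lines only join points of 1 probe set, and the dashed line is the floor at 5.02. Stat4 stands highest in macrophages, all 3 Socs3 sets stand lowest there, and Socs1 lies under the floor on every array.

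Stat3, the factor of interleukin 6 and interleukin 10, was read by 4 probe sets. Its first set measured 9.03 in red pulp macrophages, 10.77 in Spic-positive monocytes and 10.87 in Spic-negative monocytes, and the second measured 9.11, 10.58 and 10.83. Macrophages were thus the low array on both sets, with differences of -1.84 and -1.73 from Spic-negative monocytes, a fold of 3.57 on the first set. The fourth set, at 4.97, 6.27 and 6.06 in the same order, was also lowest in macrophages. The third set did not share this pattern, with 8.26 in macrophages, 8.19 in Spic-positive monocytes and 8.26 in Spic-negative monocytes. The direction of the Stat3 difference between macrophages and Spic-positive monocytes therefore depends on the probe set, with -1.74 on the first and 0.07 on the third, and -0.74 from the median of the 4 sets.

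Stat5a and Stat5b, close relatives that carry signals of GM-CSF, interleukin 3 and erythropoietin, stood apart from the monocytes to different extents. Stat5a measured 6.23 in red pulp macrophages, 8.15 in Spic-positive monocytes and 8.45 in Spic-negative monocytes on its first set. Among the first sets of the STAT genes this was the largest difference downwards from Spic-negative monocytes, at -2.22 or 4.65-fold lower, and 1.93% of all genes compared lay lower still. The second Stat5a set measured 3.43, 3.96 and 5.66 and was above the floor in Spic-negative monocytes only. On that set Spic-positive monocytes differed from Spic-negative monocytes by -1.69, the 1 probe set of the members past 2-fold between the monocyte arrays, against -0.30 on the first set. Between these arrays the excess of 3′ over 5′ control signal was larger in Spic-positive monocytes for Gapdh (2.25 against 0.48) but not for beta-actin (0.57 against 0.74), and its part in the low second set was not tested.

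Stat5b measured 8.96 in red pulp macrophages, 9.34 in Spic-positive monocytes and 9.61 in Spic-negative monocytes on its first set. Its second set ran the other way, with 7.06, 6.48 and 6.5. The sets differ by -0.65 and 0.56 between macrophages and Spic-negative monocytes, so no direction can be given for Stat5b. The transcripts of the pair are similar, and whether a probe set of one binds the other was not tested.

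Stat2, which joins interferon signalling with IRF9, measured 6.60 in red pulp macrophages, 8.16 in Spic-positive monocytes and 7.62 in Spic-negative monocytes. Its second set measured 5.19, 6.19 and 6.31. Macrophages were lowest on both sets, with differences of -1.02 and -1.12 from Spic-negative monocytes, close to the 2-fold limit. After centring the arrays the first set gave -0.97, which is short of it. The order of the monocyte populations turned between the sets, at 0.54 on the first and -0.12 on the second. Irf9 measured 9.07, 9.83 and 9.76 in macrophages, Spic-positive and Spic-negative monocytes, and Usp18, which shuts off the type I interferon receptor and is itself interferon-induced, measured 8.06, 9.61 and 9.13. Both were thus lowest in macrophages, like Stat2, with -1.07 for Usp18 and -0.69 for Irf9 against Spic-negative monocytes. The far wider gaps of Ifi44l (-7.04) and Ifi202b (-6.07) ran the same way. The macrophage array also differed from the monocyte arrays in Xist and Eif2s3y. Differences between the animals therefore cannot be told apart from the cell type or from interferon signalling in any of these values.

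Stat6, the factor of interleukin 4 and interleukin 13, had the smallest macrophage differences among the first sets of the STAT genes. It measured 10.28 in red pulp macrophages, 10.51 in Spic-positive monocytes and 10.70 in Spic-negative monocytes, and 7.82, 7.97 and 8.46 on its second set. Both sets stood in the same order with all differences under 2-fold.

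Stat4, best known from interleukin 12 signalling in NK and T cells, had a single probe set. It measured 8.55 in red pulp macrophages, 5.07 in Spic-positive monocytes and 5.68 in Spic-negative monocytes, so both monocyte arrays were near the floor. Macrophages were higher by 3.49 against Spic-positive monocytes (11.2-fold) and by 2.88 against Spic-negative monocytes (7.35-fold). Of all genes compared, 1.57% were further up than Stat4 in the comparison with Spic-positive monocytes and 3.66% in that with Spic-negative monocytes. Among the first sets of the members above the floor it had the widest range over the arrays. The 3 other genes above the floor whose log2 levels on the 3 arrays were nearest to those of Stat4, by Euclidean distance, were Tmem29 (0.256), Klrd1 (0.317), an NK cell receptor gene, and Marchf8 (0.375), a ubiquitin ligase gene. With 3 arrays such likeness is a description only.

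Several NK and T cell markers were also high on the macrophage array, and others were not. Of 11 NK cell markers measured, 4 were above the floor on all 3 arrays, and of these Klrd1 was higher in macrophages than in Spic-negative monocytes by 3.0, Cd160 differed by 0.93, Prf1 by 0.72 and Klrk1, an activating receptor gene, by -0.51. Another 5 were above the floor in macrophages only, so the monocyte values of these are background. Among them Gzma, a granule protease gene, measured 9.24 in macrophages, 4.0 in Spic-positive monocytes and 4.31 in Spic-negative monocytes, and Eomes, an NK and T cell transcription factor gene, 8.1, 4.2 and 3.93. Nkg7 measured 8.36, 5.98 and 4.83, so that Spic-positive monocytes exceeded Spic-negative ones in Nkg7 (1.15) but not in Stat4 (-0.61). The summed level of the NK list was log2 11.19 in macrophages, 9.03 in Spic-positive monocytes and 8.66 in Spic-negative monocytes. Of 9 T cell markers measured, 6 were above the floor in macrophages only, and the summed levels were 9.46, 8.23 and 8.22. Of these 6, 5 were at least 2-fold higher in macrophages than in Spic-negative monocytes, where their values are background. The brightest were Cd28 and Cd3g, at 7.3 and 6.99 in macrophages. The 2 above the floor on all arrays stayed within 2-fold: Lat, a T cell signalling adaptor, differed by 0.49 from Spic-negative monocytes, and Cd3e, a chain of the T cell receptor complex, by -0.48. Tbx21 of the NK list and Trat1 of the T cell list lay below the floor on all 3 arrays. Ifng, the interferon gamma gene that STAT4 drives in NK and T cells, measured 6.63 in macrophages and lay below the floor in monocytes, at 3.22 and 3.08. Il12rb1 and Il12rb2, the interleukin 12 receptor chains, lay below the floor on all 3 arrays. The part of NK or T cell RNA in the Stat4 value was not tested.

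**Figure D2:**
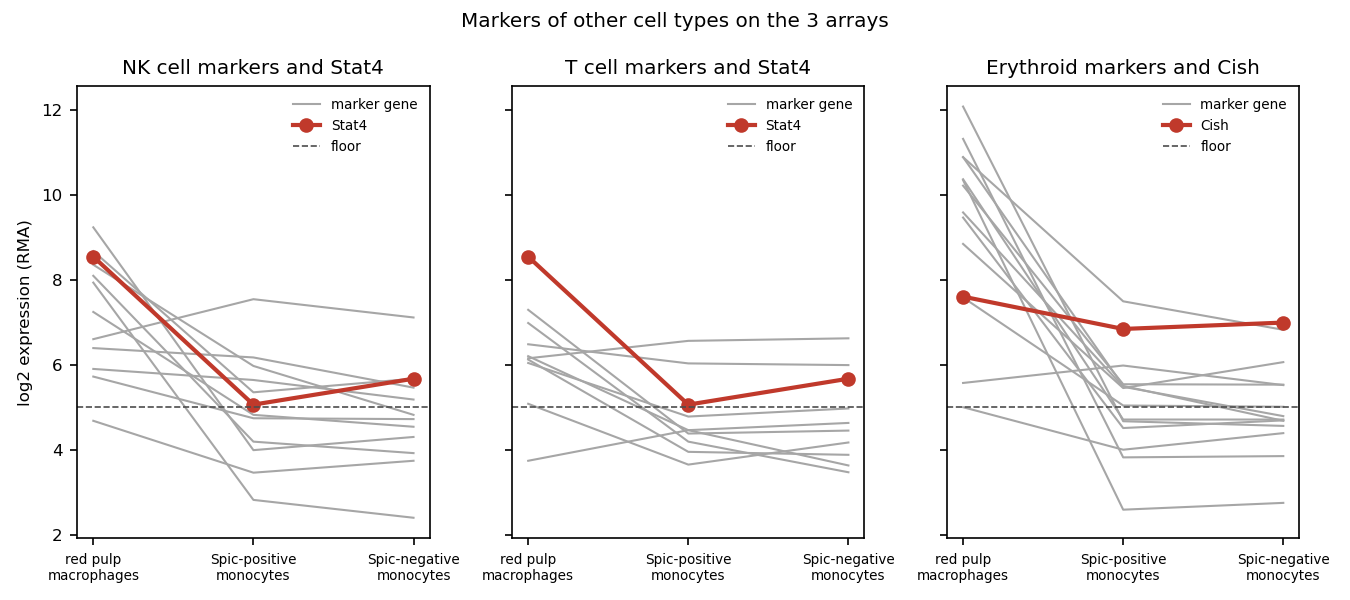
Log2 expression (y axis) of Stat4 with the NK cell and T cell markers, and of Cish with the erythroid markers, in red pulp macrophages, Spic-positive monocytes and Spic-negative monocytes (x axis, 1 array each). Grey lines are single marker genes and the dashed line is the floor. The drop of Stat4 between 8.55 in macrophages and 5.07 and 5.68 in monocytes is shared by Klrd1, Gzma and Eomes but not by Klrk1, while Cish differs by less than 2-fold under steep erythroid lines.

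Socs3, the inhibitor of gp130 signalling, was highest in Spic-positive monocytes and lowest in macrophages on all 3 of its probe sets. The first measured 10.06 in red pulp macrophages, 12.17 in Spic-positive monocytes and 11.54 in Spic-negative monocytes, the second 8.93, 11.37 and 10.97, and the third 7.42, 11.14 and 10.61. Spic-positive exceeded Spic-negative monocytes by 0.62, 0.40 and 0.53 on these sets, and 9.27% of all genes were further up than the first set. Macrophages differed from Spic-positive monocytes by -2.10, -2.44 and -3.73. Against Spic-negative monocytes the differences were -1.48, -2.04 and -3.20. Both of the first sets are of a design that can bind several transcripts, and the third, which is not, gave the widest macrophage difference, more than 1.5 times that of the first.

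Cish, a STAT5 target that restrains receptors using STAT5, had 1 probe set, at 7.61 in red pulp macrophages, 6.85 in Spic-positive monocytes and 7.0 in Spic-negative monocytes. Macrophages were the high array, by 0.76 and 0.61, both under 2-fold, so Cish and Socs3 stood in opposite order. Of all genes compared, 28.8% were further up than Cish in macrophages against Spic-negative monocytes. The erythropoietin receptor gene Epor, a user of STAT5, measured 8.97, 5.58 and 6.03 in the same order. Erythroid markers were high on the macrophage array: of 13 measured, 5 were above the floor on all arrays and 4 of these exceeded Spic-negative monocytes by at least 2-fold, 5 were above it in macrophages only, and the list had summed levels of 14.03 in macrophages, 9.15 in Spic-positive monocytes and 8.90 in Spic-negative monocytes. Car2, Slc4a1, Alas2 and Tfrc, which serve carbon dioxide and anion transport, heme synthesis and iron uptake in red cell precursors, measured 12.08, 11.32, 10.89 and 10.89 in macrophages. The part of erythroid RNA in the Cish and Epor values was not tested.

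Socs1, an inhibitor of JAKs downstream of interferons, measured 4.39 in red pulp macrophages, 4.15 in Spic-positive monocytes and 4.48 in Spic-negative monocytes on its single set. All 3 values lie below the floor, so no fold is given.

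**Figure D3:**
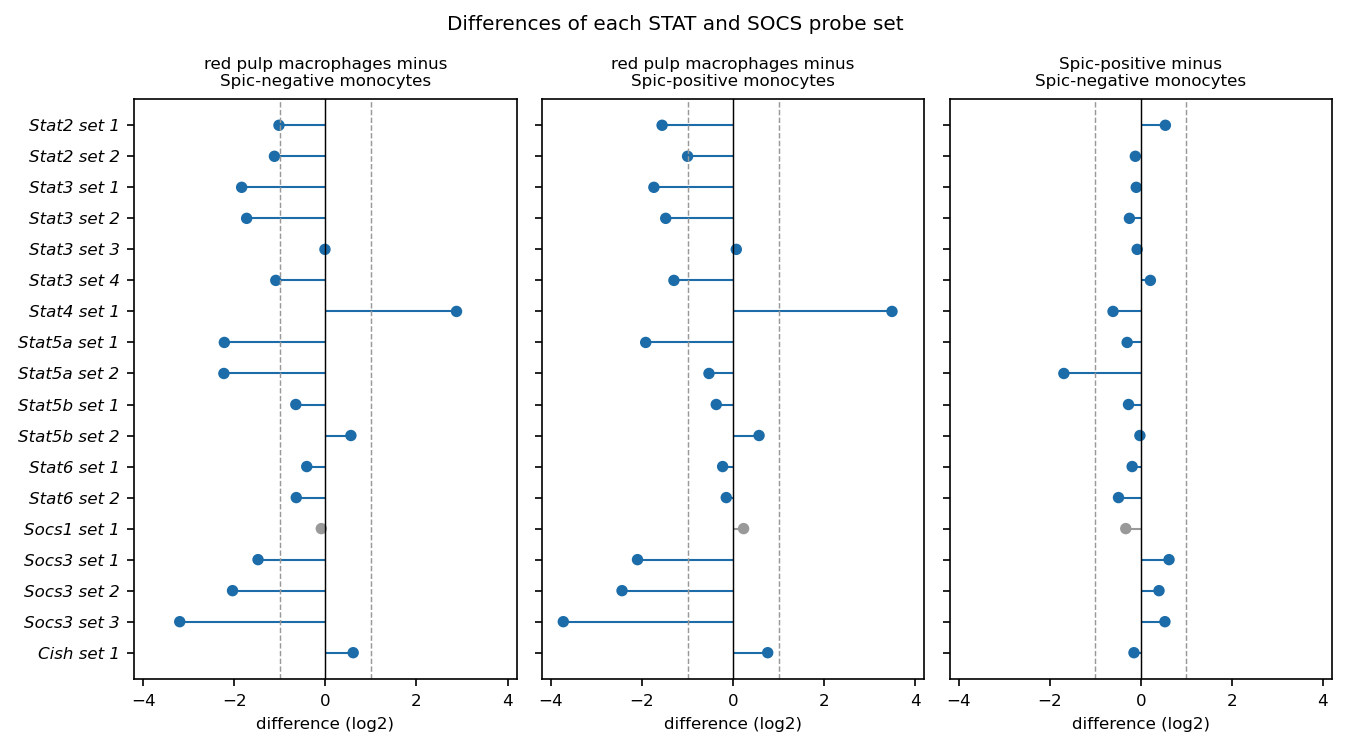
Differences in log2 units (x axis) of the 18 STAT and SOCS probe sets (rows) for red pulp macrophages against both monocyte populations and for Spic-positive against Spic-negative monocytes. Dashed lines mark 2-fold and grey points a gene below the floor on all arrays. In macrophages 10 of 17 sets above the floor are 2-fold lower than in Spic-negative monocytes and 1, that of Stat4, is higher, while 1 set, of Stat5a, passes 2-fold between the monocyte arrays.

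Counted by probe set, 10 of the 17 member sets above the floor were at least 2-fold lower in macrophages than in Spic-negative monocytes and 1 was 2-fold higher. Of all 21774 single-symbol probe sets above the floor, 14.2% were lower and 17.7% higher. Against Spic-positive monocytes, 8 sets were lower and 1 higher, where 13.6% of all sets were lower and 21.1% higher. Sets of 1 gene share their RNA, so Stat3 and Socs3 weigh more in these counts. Between the monocyte populations 1 set was 2-fold lower, with 5.13% of all sets lower and 3.14% higher.

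The kinases and brakes around the STATs were measured next, from lists of the pathway's parts. Over all genes compared, 11.3% were 2-fold lower and 19.6% higher in macrophages than in Spic-negative monocytes. Between Spic-positive and Spic-negative monocytes these shares were 3.06% and 3.49%. The lists are short and were chosen with earlier results of these data known, so their counts describe the lists only. All 4 JAK genes were lower in macrophages than in either monocyte population, each by less than 2-fold, and this held under each of the 3 other scalings. Jak1 measured 10.10 in red pulp macrophages, 10.89 in Spic-positive monocytes and 10.77 in Spic-negative monocytes, and the other JAK differences against Spic-negative monocytes ran from -0.99 for Jak3 to -0.29 for Jak2. Of 10 PIAS, phosphatase and adaptor genes, 3 were 2-fold lower in macrophages than in Spic-negative monocytes and none was 2-fold higher. These were Cbl (-1.44), a ubiquitin ligase gene, Sh2b3 (-1.28), an adaptor that restrains JAK2, and Pias4 (-1.07). Between the monocyte populations no gene of either list passed 2-fold.

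Other SOCS family genes varied more. Socs2, a brake on growth hormone signalling, measured 7.63 in red pulp macrophages and lay below the floor in Spic-positive and Spic-negative monocytes, at 4.66 and 4.04. Socs5 was higher in macrophages than in Spic-negative monocytes by 1.31, while Socs4 differed by -1.84. Socs7 measured 9.38 in macrophages, 7.56 in Spic-positive monocytes and 8.60 in Spic-negative monocytes, a difference of -1.04 between Spic-positive and Spic-negative monocytes that fell short of 2-fold, at -0.86, under both quantile normalization and cyclic loess. The family thus held genes both above and below 2-fold in macrophages. Against Spic-negative monocytes 2 of 5 were higher and 1 of 5 lower, beside 19.6% and 11.3% of all genes.

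**Figure D4:**
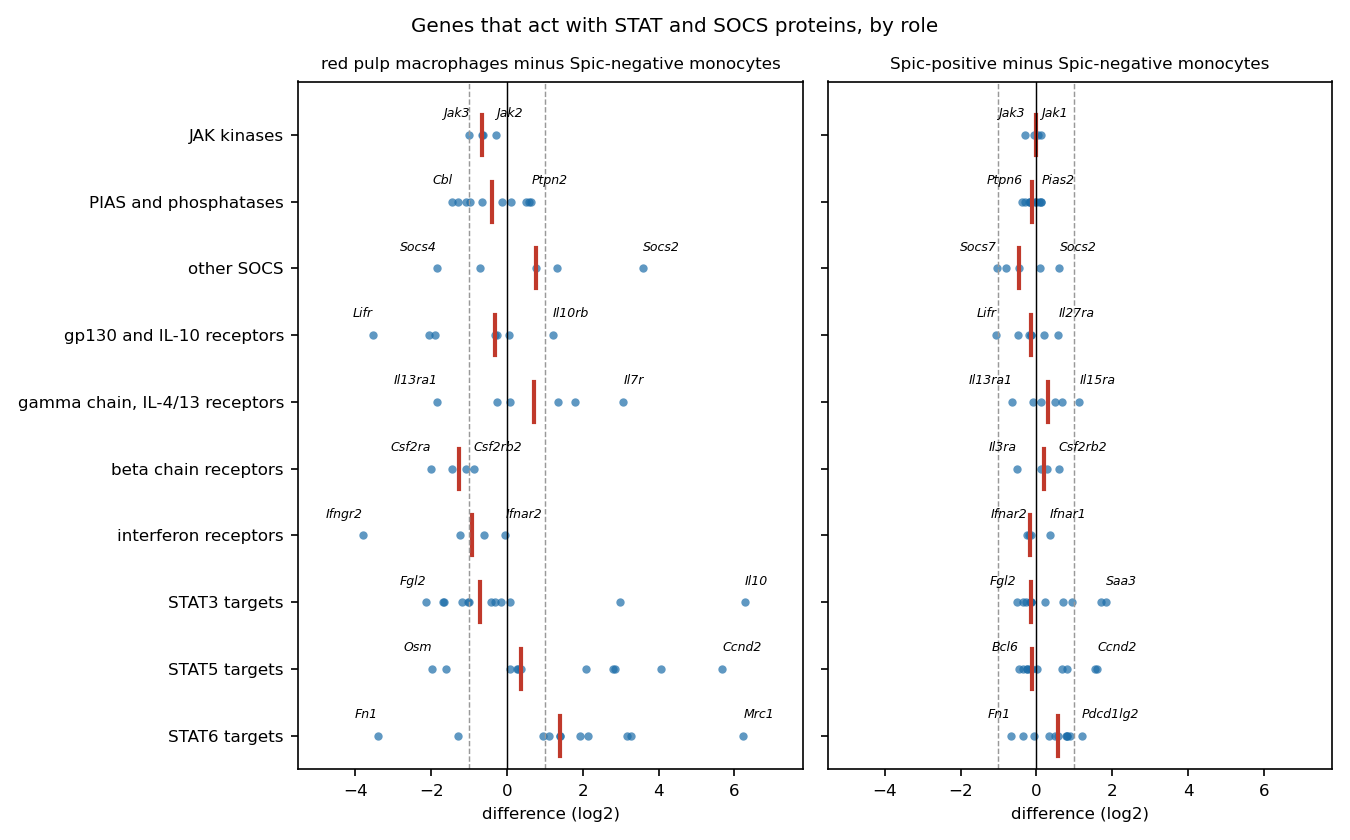
Differences in log2 units (x axis) of genes that act with STAT and SOCS proteins, by role (rows), for red pulp macrophages and for Spic-positive monocytes, each against Spic-negative monocytes. Points are genes above the floor, red bars are list medians, dashed lines mark 2-fold and the lowest and highest gene of each row are named. Points spread widely in macrophages, from -3.8 for Ifngr2 to 6.27 for Il10, and narrowly between the monocyte arrays.

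Of the receptor chains that feed these STATs, some were lower and some higher in macrophages. Of all genes compared, 11.3% were 2-fold lower and 19.6% higher than in Spic-negative monocytes. In the common beta chain group, which binds GM-CSF and interleukin 3 and uses STAT5, 3 of 4 genes above the floor were 2-fold lower than in Spic-negative monocytes and none was higher. Of these, Il3ra, was at the limit (-1.07, and -0.99 under cyclic loess). Csf2ra measured 8.66 in red pulp macrophages, 10.92 in Spic-positive monocytes and 10.66 in Spic-negative monocytes, and Csf2rb 10.31, 11.85 and 11.75. Both receptor genes were thus low on the array where Stat5a was low. Of 4 interferon receptor chains, 2 were 2-fold lower, namely Ifngr2, at 7.22, 10.87 and 11.02, and Ifngr1 (-1.25).

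Of 7 gp130 and interleukin 10 receptor genes above the floor, which signal through STAT3, 3 were 2-fold lower and 1 was 2-fold higher in macrophages than in Spic-negative monocytes. Over all genes these shares were 11.3% and 19.6%. Lifr, the LIF receptor, measured 5.46 in red pulp macrophages, 7.93 in Spic-positive monocytes and 9.0 in Spic-negative monocytes, and was the 1 gene of this list past 2-fold between the monocyte arrays (-1.06, but -0.87 under quantile normalization and -0.9 under cyclic loess). Il6ra differed by -2.06 and Csf3r by -1.89, while Il10rb was higher by 1.21. The shared chain Il6st (gp130) differed by only -0.31. Among 6 genes above the floor of the common gamma chain and interleukin 4 and 13 receptors, 3 were 2-fold higher in macrophages than in Spic-negative monocytes. These were Il7r (3.07), Il2rb (1.8) and Il21r (1.34), and Il13ra1 was lower (-1.84). The interleukin 4 receptor gene Il4ra differed by only -0.25. Il2rb lay below the floor in both monocyte populations. Il7r and Il2rb are also carried by NK and T cells, some of whose markers were higher on this array. Il15ra measured 8.45 in Spic-positive and 7.32 in Spic-negative monocytes, a difference of 1.13.

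Of 20 cytokine genes that signal through STATs, 9 were above the floor. In macrophages against Spic-negative monocytes 3 of these were 2-fold higher and 2 lower, beside 19.6% and 11.3% of all genes. Il10 measured 10.56 in red pulp macrophages, 5.21 in Spic-positive monocytes and 4.28 in Spic-negative monocytes, below the floor in the last. Osm, a gp130 ligand and STAT5 target, measured 9.10, 10.73 and 11.08, and Lif 5.75, 6.72 and 7.46. Il6 measured 7.99, 7.51 and 8.52, and was the 1 ligand past 2-fold between the monocyte arrays (-1.02, but -0.85 under quantile normalization and -0.84 under cyclic loess). Ifng, given above, and Ifnb1 were the other higher ligands. Ifnb1, an interferon gene, measured 5.52 in macrophages, near the floor, and 4.18 and 4.15 in Spic-positive and Spic-negative monocytes, below it. The macrophage array thus had the high values of Il10, Ifng and Ifnb1 and the low values of Osm and Lif. Il10 stood high where Stat3 and Socs3, its mediator and target, stood low on most of their probe sets. Ifnb1 was higher where Stat2, Irf9 and Usp18 were lower.

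Known target genes were read by factor, from lists that share Pim1, Osm, Il10, Il2ra, Tfrc, Fn1 and Chil3 with other lists. Of 12 STAT3 targets, 6 were 2-fold lower and 2 higher in macrophages than in Spic-negative monocytes, with a median of -0.72. Over all genes compared, 11.3% were lower and 19.6% higher, with a median of 0.03. Fgl2 (-2.13), Bcl3 (-1.69), Il1rn (-1.67) and Cebpd (-1.18) were among those lower, and Il10 (6.27) and Saa3 (2.97), an acute phase gene, were the higher ones. Cebpb (-1.03) and Hif1a (-1.01) were at the limit, and gave -0.98 and -0.96 after centring. Spic-positive monocytes exceeded Spic-negative monocytes 2-fold in Saa3 and Il1rn, by 1.84 and 1.7, on the array where Socs3 was highest. The median of the STAT3 list between the monocyte arrays was -0.13.

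Of 11 STAT5 targets above the floor, 5 were 2-fold higher in macrophages than in Spic-negative monocytes and 2 lower, with a median of 0.36. Among all genes compared, 19.6% were higher and 11.3% lower, and the median was 0.03. Ccnd2, a cyclin gene, measured 11.03 in red pulp macrophages, 6.96 in Spic-positive monocytes and 5.35 in Spic-negative monocytes, and Tfrc, Myc and Ccnd1 were higher by 4.06, 2.84 and 2.81. Ccnd2 and Myc also passed 2-fold between Spic-positive and Spic-negative monocytes, at 1.61 and 1.56. Tfrc and Gfi1b (2.09) are genes of red cell precursors as well, whose markers were high on the macrophage array. Osm and Bcl6 were lower, with -1.97 and -1.60. Stat5a was lower in macrophages, like these last 2 targets and unlike the 5 that were higher.

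Of 11 STAT6 targets above the floor, 8 were 2-fold higher in macrophages than in Spic-negative monocytes and 2 lower, while Stat6 differed by -0.41. The shares over all genes compared were 19.6% and 11.3%. Of the 6 above the floor on all arrays, 3 were higher and 2 lower, and the 5 other higher genes had at least 1 monocyte value below it. Mrc1, the mannose receptor, measured 12.55 in red pulp macrophages, 7.08 in Spic-positive monocytes and 6.30 in Spic-negative monocytes. Cdh1 (E-cadherin) was higher by 3.28, Tgm2 (transglutaminase) by 3.17 and Arg1 by 2.14, with Cdh1 and Arg1 below the floor in both monocyte populations. Fn1 and Chil3, which are also monocyte genes, differed by -3.41 and -1.29. Between the monocyte arrays 1 of 11 passed 2-fold, Pdcd1lg2 (1.20), the gene of the inhibitory ligand PD-L2, which was below the floor in Spic-negative monocytes. Il4 and Il13 lay below the floor on all 3 arrays. Among the genes of these pathway and target lists past 2-fold, a further probe set ran against the first in 1 of 3 sets above the floor for Cbl, Hif1a and Il1rn and 1 of 2 for Il10rb in macrophages against Spic-negative monocytes, and in 1 of 3 for Socs7 and Lifr between the monocyte arrays. Many genes have several regulators, so these counts describe the lists and do not measure the activity of any STAT.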

How the data were processed

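RNA from 3 sorted spleen populations was read on 3 arrays, 1 per population. The authors deposited 1 log2 value for every probe set, obtained with RMA according to the submitters' processing notes, which name no version. The log2 scale was taken from the values, which ran from 1.82 to 14.50. Per the labels' protocols, cRNA was made with a 2-cycle kit. RMA brings the arrays close to 1 distribution, so a difference in total RNA is not visible. The deposited arrays did not share it exactly. Their medians were 4.96 in macrophages, 5.08 in Spic-positive and 5.01 in Spic-negative monocytes. Quantile normalization once more moved the genes 2-fold lower in macrophages than in Spic-positive monocytes from 1435 to 1760.

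Of 45101 probe sets, 64 were controls, 34945 had 1 gene symbol, 932 had several and 9160 were unnamed here. Symbols of 34741 were updated through the gene identifier (GRCm38.p6 table). Each of 18193 genes took its probe set with the highest mean, and the 12375 with an array above the floor (log2 5.02) were compared at 2-fold. Precision is limited by having 1 array per group, so no test was possible. The counts were tested on simulated data. Alternatives tried were a gene's mean or median probe set value, centring, quantile normalization, cyclic loess, other floors, no _x_at or _s_at sets, and 1.5-fold or 4-fold. Text names the 9 members, list genes past 2-fold (at most 4 per direction) and those a member is described with, the brightest markers and the sort genes. Cd3e, Lat, Klrk1, Prf1, Cd160, Tbx21, Trat1, Gfi1b, Hif1a, Cebpb, Il3ra, Ifi44l, Ifi202b, Xist and Eif2s3y were named after their values were seen. The members and lists were chosen with earlier results of these data known. Python 3.11.15, pandas 2.3.3, numpy 2.4.6, R 4.3.3 and limma 3.58.1 were used.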

Additional observations from a re-analysis of the deposited data

How the results depend on the processing

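Of 189 values of single members under another setting or probe set, 180 kept their side of 2-fold, 8 crossed it, and 1 past 2-fold turned: Stat3 in red pulp macrophages against Spic-positive monocytes, 0.07 on the third probe set. Stat3 in macrophages also fell short of 2-fold from the median of its sets (-0.91 against Spic-negative and -0.74 against Spic-positive monocytes), and Stat2 against Spic-negative monocytes after centring (-0.97) and on cyclic loess. The member counts moved by over 1.5 times with the fold only. At 1.5-fold, 1 of 8 members was higher and 1 lower in Spic-positive monocytes against Spic-negative ones. Of all 12375 genes, 1287 were higher and 1563 lower there. In macrophages 2 of 8 were higher at 1.5-fold in each comparison. Of all genes, 3656 were higher than in Spic-negative and 4129 than in Spic-positive monocytes. At 4-fold, 1 of 8 was lower in macrophages in each, beside 325 and 252 of all genes. Stat4 stayed higher at 4-fold in both (7.35-fold and 11.2-fold), beside 913 and 893 of all genes. Over all genes the share of higher among called genes between the monocyte arrays was 53.3%, and 42.4% after centring. Against 379 genes lower there, the count was 237 with the mean of probe sets. With the floor at the 75th percentile, which tests fewer genes, 249 rather than 432 were higher there, and 943 rather than 1435 were lower in macrophages than in Spic-positive monocytes. No paired analysis was possible because each group has 1 array.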
